A study of Mus musculus with 4 samples.

Results

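Genes of glycolysis and of the response to low oxygen were followed in mouse CD4 T cells cultured toward the TH17 fate, the helper cell type that makes interleukin 17, with and without JQ1, an inhibitor of the BET proteins that read acetylated histones. The list named 41 genes by their roles in oxygen sensing, glucose uptake, glycolysis, and lactate and glycogen handling. Of these, 35 had an array row annotated to exactly 1 gene symbol, among 14860 genes measured the same way, and a gene with more than 1 such row was represented by its brightest row on average. Gpi1, Gapdh, Pgk1, Pgam1, Eno1 and Ldha were not analysed here. The cells were naive CD4 T cells isolated with magnetic beads from the spleens of C57BL/6 mice. All 4 samples were stimulated through CD3 and CD28 with coated beads in the presence of TGF-β1, IL-6 and IL-23 and of antibodies that block IFN-γ and IL-4. In 2 samples the culture held 150 nM JQ1 and in the other 2 it held DMSO, the solvent, and both groups are labelled 48 hours, although the treatment text also speaks of a longer stimulation with the beads. Total RNA was hybridised to Affymetrix exon arrays, 1 array per sample. Nothing in the labels tells whether samples of a group are separate cultures or animals. The p-values therefore reflect no more than the spread of these 4 samples, which could be technical, and the small number of arrays limits the precision of every value.

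HIF-1α, the product of Hif1a, is a transcription factor that is made constantly and destroyed while oxygen is present. Prolyl hydroxylases, encoded by Egln1, Egln2 and Egln3, mark it for the ubiquitin ligase that contains VHL, and the asparaginyl hydroxylase encoded by Hif1an keeps it from its coactivators. Stable HIF-1α raises the transcription of glucose transporter, glycolytic enzyme and lactate exporter genes and of Egln3 itself. Activated T cells rely on glycolysis even in oxygen, and HIF-1α is known to favour the TH17 over the regulatory T cell fate.

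The promoters of 5 members are shown because these are the genes at an unadjusted limma p under 0.05 both as deposited and relative to genes of equal brightness: Egln3, Egln1, Tpi1 and Slc16a3 were lower with JQ1 and Gbe1 was higher. Each window holds 250 bases before and 50 bases after the start of the gene in RefSeq on GRCm38.p6 and is written 5′ to 3′ on the strand of the gene. Capitals mark the letters ACGTG or GCGTG, the core letters of hypoxia response elements, read on either strand. The windows lie at chr12:54203825-54204124 on the minus strand for Egln3, at chr8:124949205-124949504 on the minus strand for Egln1, at chr6:124814109-124814408 on the minus strand for Tpi1, at chr11:120948817-120949116 on the plus strand for Slc16a3 and at chr16:70313699-70313998 on the plus strand for Gbe1.
Egln3: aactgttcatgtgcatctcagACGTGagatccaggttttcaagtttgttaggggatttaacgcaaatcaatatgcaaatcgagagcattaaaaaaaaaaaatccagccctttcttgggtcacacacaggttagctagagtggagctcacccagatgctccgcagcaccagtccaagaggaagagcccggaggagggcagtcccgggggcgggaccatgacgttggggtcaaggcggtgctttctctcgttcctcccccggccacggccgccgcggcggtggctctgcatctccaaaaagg
Egln1: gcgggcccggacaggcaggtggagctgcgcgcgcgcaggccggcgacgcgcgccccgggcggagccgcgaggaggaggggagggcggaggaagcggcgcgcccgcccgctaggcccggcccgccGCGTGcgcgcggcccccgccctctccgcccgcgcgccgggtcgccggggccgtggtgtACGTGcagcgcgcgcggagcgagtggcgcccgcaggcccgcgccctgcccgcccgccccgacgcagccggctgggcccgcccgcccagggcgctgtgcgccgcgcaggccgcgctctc
Tpi1: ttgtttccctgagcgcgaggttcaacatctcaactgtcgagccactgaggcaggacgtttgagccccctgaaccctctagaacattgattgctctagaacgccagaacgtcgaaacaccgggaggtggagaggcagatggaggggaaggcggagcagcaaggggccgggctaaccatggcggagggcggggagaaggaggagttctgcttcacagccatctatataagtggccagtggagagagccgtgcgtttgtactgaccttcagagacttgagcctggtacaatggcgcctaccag
Slc16a3: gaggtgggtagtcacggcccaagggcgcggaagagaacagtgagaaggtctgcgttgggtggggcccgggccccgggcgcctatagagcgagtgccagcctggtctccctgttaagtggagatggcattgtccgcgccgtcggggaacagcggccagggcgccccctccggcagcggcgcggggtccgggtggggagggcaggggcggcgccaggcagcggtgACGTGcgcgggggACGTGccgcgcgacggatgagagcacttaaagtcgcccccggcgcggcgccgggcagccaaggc
Gbe1: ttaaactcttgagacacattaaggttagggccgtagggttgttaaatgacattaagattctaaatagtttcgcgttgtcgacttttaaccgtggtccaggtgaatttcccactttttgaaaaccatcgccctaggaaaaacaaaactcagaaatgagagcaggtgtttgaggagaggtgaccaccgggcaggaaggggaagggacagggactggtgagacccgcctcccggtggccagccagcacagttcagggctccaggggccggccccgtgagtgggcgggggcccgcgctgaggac
The Egln3 window held 1 match to ACGTG, the Egln1 window 1 match to each motif, the Slc16a3 window 2 matches to ACGTG, and the Tpi1 and Gbe1 windows no match to either. Of the 35 measured members, 33 had such windows in the RefSeq table, 47 windows in all because some genes have several starts. ACGTG stood in 51.1% of the members' windows, against 22.5% of the 14898 windows of all genes on the arrays, and GCGTG in 51.1% of the members' windows, against 42.9%. CACGTG, the E-box form, which contains ACGTG on both strands, stood in 12.8% of the members' windows and in 8.61% of the windows of all genes on the arrays. A match describes the letters of these windows only and does not show that a factor binds there, and many members are on the list because they are hypoxia targets.

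Most measured members, like most genes on the arrays, had lower values in the JQ1 samples than in the DMSO samples. The log2 change, which is the mean of the 2 JQ1 arrays minus the mean of the 2 DMSO arrays, was negative for 26 of the 35 members, or 74.3%, against 66.2% of all 14860 genes, and its median was −0.25, against −0.09 over all genes. It was most negative for Egln3, at −1.55, followed by Tpi1, Slc16a3 and Egln1, and most positive for Gbe1, at 0.74. No member passed the test over all genes, which was limma's moderated test with Benjamini-Hochberg adjustment at a threshold of 0.05. In bulk samples such as these, fewer cells of a type and less RNA per cell cannot be told apart.

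The lowest adjusted p of a member in limma was 0.194, for Egln3, and the highest was 0.997. Of all genes, 1 passed, which is 0.00673%, and this was the granzyme gene Gzmb, which fell by 3.42 on the log2 scale (limma adjusted p = 0.0238). When only the 7430 genes above the median of brightness were tested, 50 passed. Egln3 was among them (limma adjusted p = 0.0302), as 1 of 29 members left there, but relative to genes of equal brightness 0 of the 29 passed. Over the alternatives the lowest adjusted p of any member otherwise ranged from 0.0739 to 0.609.

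At an unadjusted limma p under 0.05, 6 members were lower, or 17.1%, against a background of 8.26% of all genes. They were Hif1a, Egln1, Egln3, Slc2a3, Tpi1 and Slc16a3. In the same way 1 member was higher, Gbe1, or 2.86%, against 1.72% of all genes. Both JQ1 arrays lay below both DMSO arrays for 14 members, or 40.0%, against 31.4% of all genes, and above both for 3 members (Vhl, Hk2 and Gbe1), or 8.57%, against 10.0%. The members' median change was −0.16 without DMSO replicate 1, against −0.05 over all genes, and −0.33 without DMSO replicate 2, against −0.13. The split of calls depended on the scaling: it was 6 lower and 1 higher as deposited, 3 and 2 after a further quantile normalization, 4 and 1 after centring each array on its median, and 3 and 2 after cyclic loess. Over all genes the same split was 1228 lower and 255 higher as deposited, 757 and 609 after quantile normalization, 679 and 572 after centring, and 805 and 545 after cyclic loess.

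**Figure D1:**
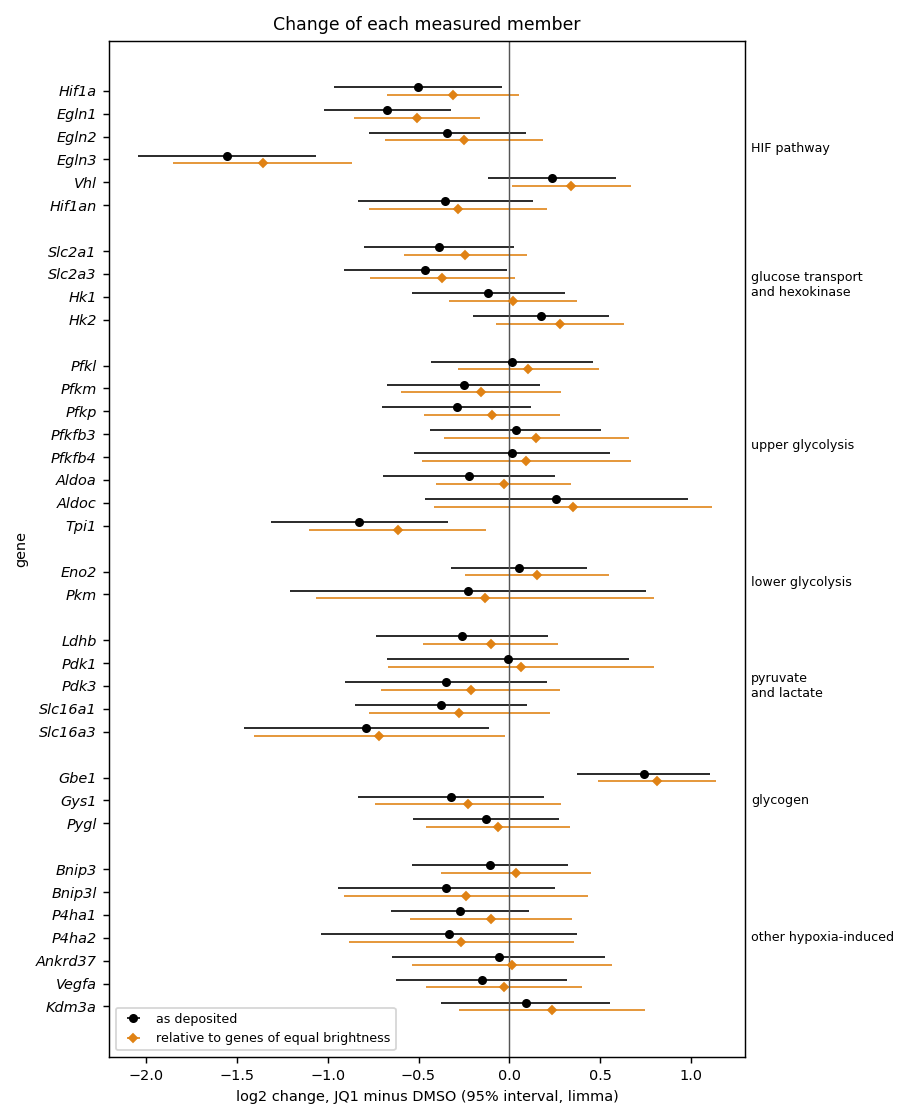
Log2 change with JQ1, the mean of 2 JQ1 arrays minus the mean of 2 DMSO arrays, of the 35 measured members by role, with limma's 95% intervals, as deposited (black circles) and relative to genes of equal brightness (orange diamonds). Egln3, Egln1, Tpi1 and Slc16a3 lie left of 0 and Gbe1 right of 0 with their whole intervals on both scales.

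The comparison was repeated relative to genes of equal brightness, because bright genes as a class lay lower with JQ1 and the members are bright. The median change over all genes ran from 0.00 among genes with a mean log2 value of up to 4 to −0.20 among those above 9, and the median level of the members was 7.21, against 6.02 for all genes. For each array, the median deviation of the 500 genes nearest in mean level was subtracted, and the shift removed in this way from the members' changes lay between −0.21 and −0.07. The median change of the members was then −0.10, against 0.00 for all genes, with 22 members negative and 13 positive. Of the 35 members, none passed limma over all genes on this scale, where the lowest adjusted p was 0.271 and 0.00673% of all genes passed, and 6 were at an unadjusted p under 0.05.

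Of those 6 members, Egln1, Egln3, Tpi1 and Slc16a3 were lower, or 11.4% of the members against 5.44% of all genes, and Vhl and Gbe1 were higher, or 5.71% against 3.55%. Both JQ1 arrays lay below both DMSO arrays for 8 members, or 22.9%, against 20.0% of all genes. They lay above both for 3 members, or 8.57%, against 20.4%. Hif1a, Egln2, Hif1an, Slc2a1, Slc2a3, Pfkm, Pfkp, Slc16a1, Gys1 and P4ha1 thus had non-overlapping groups as deposited, and of these Hif1a, Hif1an, Slc2a1 and Slc2a3 kept them on this scale. With 1 array left out, the number of lower members at an unadjusted limma p under 0.05 moved in both directions, depending on the array. The members' median change on this scale was −0.05 without JQ1 replicate 2 and −0.16 without DMSO replicate 2. It was −0.11 without JQ1 replicate 1 and −0.11 without DMSO replicate 1. With all 4 arrays, the number of higher members at that p was 1 with a window of 1000 genes (2.86%, against 3.55% of all genes). It was also 1 with the replicate number as a block (2.86%, against 3.87%).

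**Figure D2:**
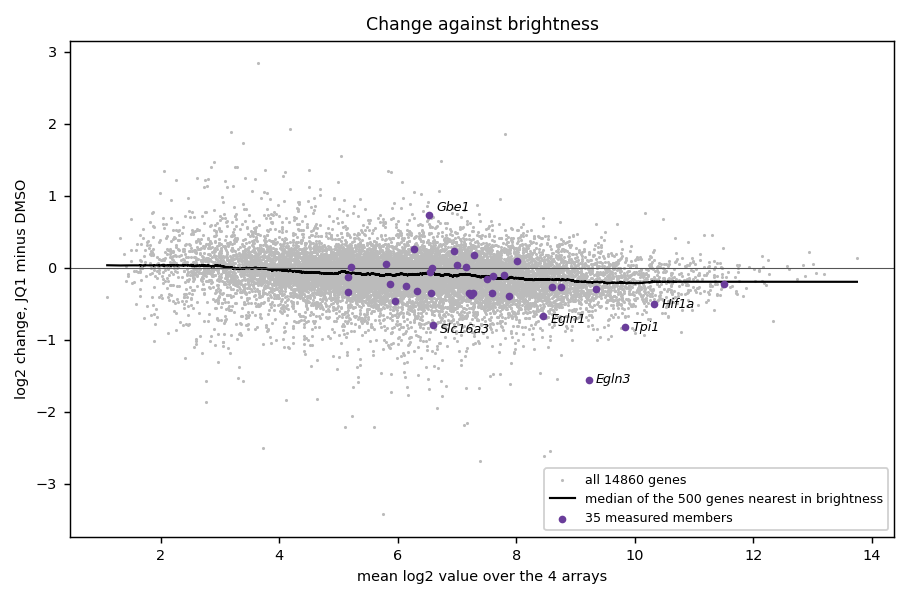
Log2 change with JQ1 (JQ1 minus DMSO) against the mean log2 value over the 4 arrays for all 14860 genes (grey) and the 35 measured members (purple), with the median of the 500 genes nearest in brightness as a line. The line declines toward bright genes, and Egln3, Tpi1, Slc16a3 and Egln1 lie below it while Gbe1 lies above it.

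The 6 genes of the HIF pathway had the lowest median change of the 7 roles, −0.43 as deposited and −0.30 relative to genes of equal brightness, with 5 of 6 negative. Egln3, a hydroxylase gene that HIF itself induces, had log2 values of 8.54 and 8.36 with JQ1, against 10.21 and 9.80 with DMSO. The groups were far apart, and the smallest gap between them exceeded the gap between replicates. Its change was −1.55 (SE 0.19, 95% interval −2.04 to −1.07), a 2.94-fold lower value, with a limma adjusted p of 0.194. Relative to genes of equal brightness it was −1.36 (interval −1.85 to −0.87), and with any 1 array left out it ranged from −1.76 to −1.35.

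Egln1, which encodes the main oxygen sensor of the family, had log2 values of 8.11 and 8.12 with JQ1, against 8.78 and 8.80 with DMSO. Replicates nearly coincided and the groups did not overlap. Its change was −0.67 (SE 0.14, interval −1.02 to −0.32, limma adjusted p = 0.292), and −0.51 relative to genes of equal brightness (interval −0.86 to −0.16). Egln2, the third hydroxylase gene, was at 7.09 and 6.98 with JQ1, against 7.54 and 7.22 with DMSO, a change of −0.34 (SE 0.17) whose interval of −0.78 to 0.09 includes 0.

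Hif1a itself had log2 values of 9.90 and 10.25 with JQ1, against 10.68 and 10.48 with DMSO, which placed it among the brightest members in both groups. The groups did not overlap, but the gap between them was narrower than the gap between the JQ1 replicates. Its change was −0.50 (SE 0.18, interval −0.96 to −0.04, limma adjusted p = 0.471), and −0.31 relative to genes of equal brightness, where the interval of −0.67 to 0.05 includes 0. It was −0.67 without JQ1 replicate 2 and −0.33 without JQ1 replicate 1. Hif1an, the asparaginyl hydroxylase gene, was at 6.60 and 6.18 with JQ1, against 6.78 and 6.70 with DMSO, a change of −0.35 (SE 0.19) whose interval includes 0.

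Vhl, the ligase subunit gene, was the member of the pathway with a positive change. Its log2 values were 7.08 and 7.06 with JQ1, against 6.81 and 6.86 with DMSO, and the groups did not overlap. The change was 0.24 (SE 0.14, interval −0.12 to 0.59), and 0.34 relative to genes of equal brightness (interval 0.01 to 0.67).

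**Figure D3:**
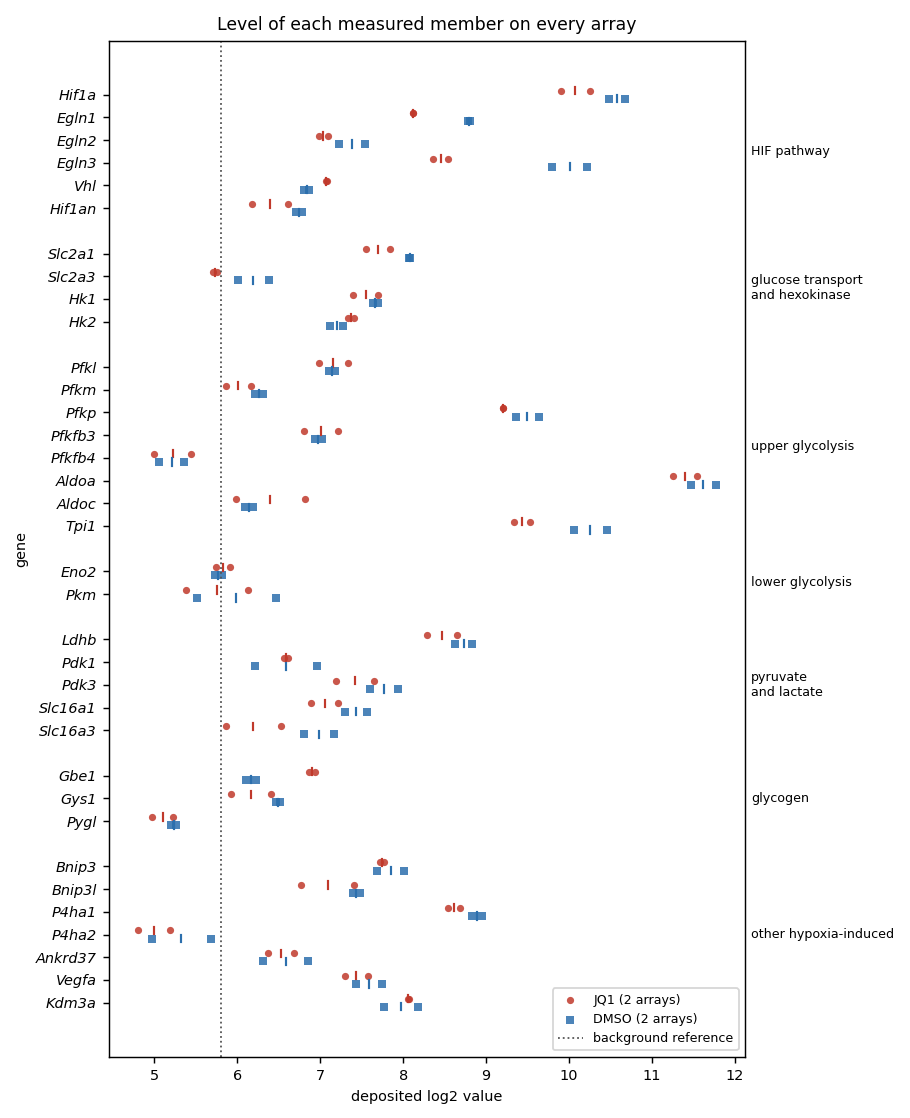
Deposited log2 value of each of the 35 measured members on every array, by role, with JQ1 arrays as red circles above DMSO arrays as blue squares and the group mean as a vertical tick. The dotted line marks the background reference at 5.80, and Egln3 shows the widest separation of the groups.

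Of the genes for glucose entry, both transporter genes were lower and the hexokinase genes were near or above their DMSO values. Slc2a1, which encodes GLUT1, the main glucose transporter of activated T cells, had log2 values of 7.55 and 7.84 with JQ1, against 8.07 and 8.08 with DMSO. The groups did not overlap, and the change was −0.39 (SE 0.16, interval −0.80 to 0.03). With all 4 arrays it did not reach an unadjusted limma p under 0.05 as deposited or relative to genes of equal brightness. The change was −0.53 without JQ1 replicate 2 and −0.24 without JQ1 replicate 1. Slc2a3, which encodes GLUT3, was at 5.71 and 5.75 with JQ1, against 6.37 and 6.01 with DMSO, a change of −0.46 (SE 0.18, limma adjusted p = 0.489). Its JQ1 values lay under the background reference of 5.80, and its change was −0.28 without DMSO replicate 1 and −0.65 without DMSO replicate 2.

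Hk2, the inducible hexokinase gene, was at 7.33 and 7.41 with JQ1, against 7.12 and 7.27 with DMSO. Both JQ1 values were above both DMSO values by a small margin, and the change was 0.17 (SE 0.15, interval −0.20 to 0.55) and 0.28 relative to genes of equal brightness. Hk1, the constitutive hexokinase gene, overlapped between the groups, with 7.40 and 7.70 with JQ1 against 7.63 and 7.70 with DMSO and a change of −0.12 (SE 0.17) that was positive after each scaling. For these 4 genes together the median change was −0.25 as deposited and −0.11 relative to genes of equal brightness.

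The 8 measured genes of upper glycolysis, from phosphofructokinase to triose phosphate isomerase, were split evenly, with 4 negative and 4 positive changes and a median of −0.10 (0.03 relative to genes of equal brightness). Tpi1, which encodes triose phosphate isomerase, stood apart from the others. It had log2 values of 9.53 and 9.33 with JQ1, against 10.46 and 10.06 with DMSO, and the groups did not overlap. Its change was −0.83 (SE 0.19, interval −1.31 to −0.34, limma adjusted p = 0.334), a 1.77-fold lower value, and −0.62 relative to genes of equal brightness (interval −1.10 to −0.13). With any 1 array left out it ranged from −1.03 to −0.63.

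Of the phosphofructokinase subunit genes, Pfkp, the platelet type, was at 9.20 and 9.21 with JQ1, against 9.64 and 9.36 with DMSO, a change of −0.29 (SE 0.16). Pfkm, the muscle type, had a change of −0.25 (SE 0.17), also without overlap, whereas Pfkl, the liver type, had a change of 0.02 (SE 0.18) with overlapping groups. Pfkfb3, whose product makes the activator fructose 2,6-bisphosphate, was at 7.21 and 6.81 with JQ1, against 6.94 and 7.01 with DMSO. Its JQ1 replicates lay on either side of both DMSO values, and the change of 0.04 (SE 0.19) had an interval of −0.44 to 0.51. Pfkfb4, which encodes a related enzyme, had a change of 0.01 at levels under the background reference.

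Aldoa, an aldolase gene and the brightest member, was at 11.25 and 11.54 with JQ1, against 11.77 and 11.46 with DMSO. The groups overlapped, and the change was −0.22 (SE 0.19) as deposited and −0.03 relative to genes of equal brightness. Aldoc, the brain-type aldolase gene, was at 5.98 and 6.81 with JQ1, against 6.10 and 6.18 with DMSO. Its JQ1 replicates lay far apart, and its change of 0.26 (SE 0.29) was −0.15 without JQ1 replicate 2.

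Lower glycolysis was covered by 2 of its 6 listed genes, and neither differed beyond the replicate spread. Eno2, an enolase gene, was at 5.75 and 5.91 with JQ1, against 5.73 and 5.81 with DMSO, with overlapping groups near the background reference and a change of 0.05 (SE 0.15). Pkm, the pyruvate kinase gene, was at 6.13 and 5.39 with JQ1, against 6.46 and 5.51 with DMSO, a change of −0.23 with the largest SE of all members, 0.39. Its row has to be read with caution, as 0% of the 20 rows numbered nearest to it belonged to genes of its chromosome. The lowest such share among the other members was 60.0%, for Egln1. Only 0.419% of the 14805 genes checked had a share under 50%. No count of members past a test or without overlap moves without Pkm.

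The 5 measured genes of pyruvate and lactate handling all had negative changes as deposited, with a median of −0.35 (−0.21 relative to genes of equal brightness, 4 of 5 negative). Slc16a3, which encodes the lactate exporter MCT4, a known HIF target, was at 6.53 and 5.86 with JQ1, against 7.16 and 6.80 with DMSO. The groups did not overlap, although the JQ1 replicates lay far apart. Its change was −0.79 (SE 0.27, interval −1.46 to −0.11, limma adjusted p = 0.441), and −0.72 relative to genes of equal brightness (interval −1.41 to −0.03). It was −0.45 without JQ1 replicate 2 and −1.12 without JQ1 replicate 1.

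Slc16a1, which encodes the lactate transporter MCT1, was at 7.22 and 6.89 with JQ1, against 7.57 and 7.30 with DMSO, without overlap and with a change of −0.38 (SE 0.19, interval −0.85 to 0.10). Pdk1, whose product is a kinase that shuts pyruvate out of the mitochondrial pathway, was at 6.61 and 6.56 with JQ1, against 6.22 and 6.96 with DMSO. Its DMSO replicates enclosed both JQ1 values, and the change was −0.01 (SE 0.27). Pdk3, which encodes another kinase of this kind, had a change of −0.35 (SE 0.22), and Ldhb, a lactate dehydrogenase subunit gene, of −0.26 (SE 0.19), both with overlapping groups. Ldhb had a second, dim row with a mean of 4.78, which was not used and which has to be read with the caution given for Pkm, since 0% of the 20 rows nearest to it belonged to its chromosome.

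Among the 3 glycogen genes, Gbe1 was higher and the other members were slightly lower. Gbe1, which encodes the glycogen branching enzyme, had log2 values of 6.86 and 6.94 with JQ1, against 6.22 and 6.10 with DMSO. The groups did not overlap, and the gap between them was several times the gap within either. Its change was 0.74 (SE 0.15, interval 0.37 to 1.10, limma adjusted p = 0.272), a 1.67-fold higher value, and 0.81 relative to genes of equal brightness (interval 0.49 to 1.14). With any 1 array left out it ranged from 0.68 to 0.80.

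Gys1, the muscle-type glycogen synthase gene, was at 6.41 and 5.92 with JQ1, against 6.46 and 6.51 with DMSO, a change of −0.32 (SE 0.20). Pygl, the liver-type glycogen phosphorylase gene, had a change of −0.13 at levels under the background reference.

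The 7 other hypoxia-induced members did not reach an unadjusted limma p under 0.05, and their median change was −0.15 (−0.03 relative to genes of equal brightness). P4ha1, a collagen prolyl hydroxylase subunit gene, was the member of this group without overlap, at 8.69 and 8.54 with JQ1, against 8.82 and 8.95 with DMSO, and had a change of −0.27 (SE 0.15, interval −0.65 to 0.11). Bnip3 and Bnip3l, both of which encode receptors for the removal of mitochondria, had changes of −0.11 and −0.35 with overlapping groups.

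Vegfa, the angiogenic growth factor gene and a standard hypoxia target, was at 7.30 and 7.57 with JQ1, against 7.43 and 7.74 with DMSO, a change of −0.15 (SE 0.19). Kdm3a, a histone demethylase gene, had a change of 0.09 (SE 0.19), Ankrd37, an ankyrin repeat gene induced by HIF, of −0.06 (SE 0.23), and P4ha2, a second collagen prolyl hydroxylase subunit gene, of −0.33 (SE 0.28) at levels under the background reference. The intervals of all 7 genes of this group include 0.

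Related enzymes were compared within each array, which asks whether their changes were unequal and sets no level of a gene against that of another. Of 12 listed pairs 10 were measured, and in 5 of them the groups did not overlap. Of all single genes, 31.4% had both JQ1 arrays below both DMSO arrays and 10.0% above, and no share over other pairs was computed. The widest inequality was between Egln1 and Egln3: the difference Egln1 minus Egln3, taken from its mean over the 4 arrays, was 0.35 and 0.53 with JQ1, against −0.66 and −0.22 with DMSO, an inequality of 0.88. For Slc16a1 minus Slc16a3 it was 0.03 and 0.38 with JQ1, against −0.25 and −0.16 with DMSO, or 0.41. The other 3 pairs without overlap were Hk2 minus Hk1 at 0.29, Pfkl minus Pfkp at 0.31 and Aldoa minus Aldoc at −0.48.

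Each of these 5 pairs had an exact two-sided permutation p of 0.33, which is the smallest that 2 arrays against 2 can give, so that no pair could pass a threshold of 0.05 (0.667 after Benjamini-Hochberg adjustment over the 10 pairs). For Slc2a1 minus Slc2a3, Pfkfb3 minus Pfkfb4 and P4ha1 minus P4ha2 the differences were 0.08, 0.02 and 0.06, with overlapping groups. Pdk1 minus Pdk3 at 0.34 and Bnip3 minus Bnip3l at 0.24 also overlapped between the groups.

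**Figure D4:**
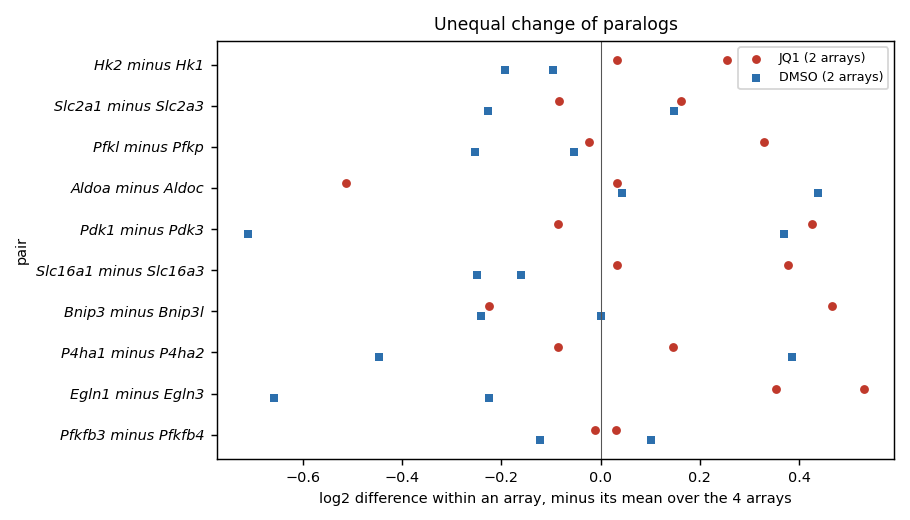
Log2 difference between the genes of each of 10 measured pairs within an array, minus its mean over the 4 arrays, with JQ1 arrays as red circles and DMSO arrays as blue squares. For Egln1 minus Egln3 the JQ1 arrays lie at 0.35 and 0.53 and the DMSO arrays at −0.66 and −0.22.

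Further genes of the same pathways were taken from a separate list of 87, of which 69 were measured. None passed limma over all genes (lowest adjusted p = 0.243), and at an unadjusted limma p under 0.05, 6 were lower, or 8.70%, and 4 were higher, or 5.80%, beside the 8.26% and 1.72% of all genes given above. Relative to genes of equal brightness 4 were lower, or 5.80% against 5.44% of all genes, and 7 were higher, or 10.1% against 3.55%, and the higher genes then also included the hypoxia-induced genes Higd1a, Ddit4 and Narf. The median change of the list was −0.05, against −0.25 for the members and −0.09 for all genes. As deposited, Ddit4, which encodes an inhibitor of mTORC1 signalling, had a change of 0.56 (SE 0.27). Narf had a change of 0.42 and Higd1a, which encodes a mitochondrial protein, of 0.40. Txnip, whose product restrains glucose uptake, was at 8.98 and 8.63 with JQ1, against 8.31 and 7.92 with DMSO, a change of 0.69 (SE 0.21). Pfkfb2, a relative of Pfkfb3, had a change of 0.57, Pdpr, which encodes a regulatory subunit of pyruvate dehydrogenase phosphatase, of 0.58, and Rimklb of 0.49 at levels under the background reference.

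The lower genes of this list were Rora, a TH17 transcription factor gene that HIF also induces, with a change of −0.83 (SE 0.15), Ugp2, which makes the glucose donor for glycogen, at −0.62, and Dld, a subunit gene of pyruvate dehydrogenase, at −0.57. They also included G6pc3, a glucose-6-phosphatase gene, at −0.57, Bpgm, which encodes bisphosphoglycerate mutase, at −0.51, and Gaa, the lysosomal glycogen-degrading enzyme gene, at −0.39. Arnt, whose product is the partner of HIF-1α, had a change of 0.01 (SE 0.21). Epas1, which encodes HIF-2α, had a change of −0.02 at levels under the background reference.

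**Figure D5:**
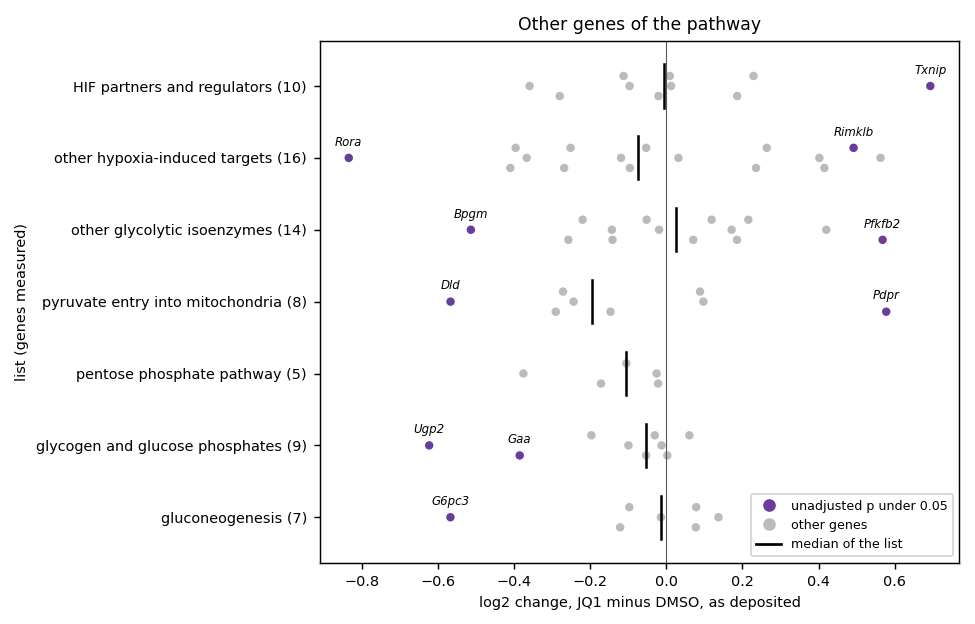
Log2 change with JQ1 (JQ1 minus DMSO) of the 69 measured other genes of the pathway by list, with genes at an unadjusted limma p under 0.05 in purple and the median of each list as a bar. The medians lie between −0.20 and 0.03, and named genes stand on both sides of 0.

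Across all genes, arrays of the same group correlated at 0.982 for JQ1 and 0.981 for DMSO, and arrays of different groups at 0.976 to 0.980, so arrays were only slightly more alike within a group than between groups. The median deviation of the members from their own means was −0.08 on each JQ1 array, against 0.21 and 0.05 on the DMSO arrays, so DMSO replicate 1 stood highest. The background reference of 5.80 is the 95th percentile of the means of 799 olfactory and vomeronasal receptor genes. Pfkfb4, Pygl and P4ha2 had both group means under it, Slc2a3 and Pkm the JQ1 mean and Eno2 the DMSO mean, and 11.4% of members had a mean over all arrays under it, against 45.2% of all genes.

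The labelled cell type was checked against markers. The 5 measured of 6 CD4 T cell markers lay over the reference in both groups, from 8.72 to 11.05 with JQ1, against 8.84 to 11.21 with DMSO. Thy1 had the most negative change of these, −0.71, and the others had changes of −0.21 to −0.12. The summed linear level of the 5 measured of 6 TH17 markers was 633 to 661 with JQ1, against 3343 to 4002 with DMSO. Il17f averaged 7.93 with JQ1, against 11.34 with DMSO, and Ccr6 averaged 6.04 with JQ1, against 8.72 with DMSO. Il17a averaged 5.79 with JQ1, under the reference, against 7.16 with DMSO. Rora averaged 7.98 with JQ1, against 8.82 with DMSO, and Il23r lay under the reference in both groups. Markers of other cell types were also lower in sum with JQ1 for some types. The summed linear level of 3 CD8 T cell markers was 141 to 185 with JQ1, against 223 to 231 with DMSO. That of 4 measured of 5 B cell markers was 167 to 177, against 206 to 224 with DMSO. For 2 measured of 3 natural killer cell markers it was 43.0 to 54.7, against 114 to 135 with DMSO. Of these 2, Klrd1 had a change of −1.73, and Ncr1, under the reference in both groups, of −0.09. The 4 measured of 5 myeloid markers summed to 149 to 175 with JQ1, against 168 to 179 with DMSO. The CD8 T cell marker Eomes, Ncr1, Ms4a1, Itgam, Csf1r, Adgre1 and the measured dendritic and erythroid markers Flt3, Xcr1 and Alas2 lay under the reference in both groups. The part of these cells in the members' values was not tested.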

How the data were processed

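The deposited table holds log2 values, 1 column per array. Per the submitters' processing notes, the authors used Affymetrix Expression Console with RMA, a method that corrects background, normalizes and summarises probes, and its version was not given in the sources read. A human genome build is named there for these mouse samples, so no coordinates were taken from the files. Of 23332 rows, 14996 carried 1 gene in the platform annotation, 1019 several and 7317 none, and 14941 of the 14996 matched RefSeq identifiers on GRCm38.p6. The brightest row stood for each of 135 genes with more than 1, without a filter on dim genes.

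JQ1 was tested against DMSO, two-sided, with the lmFit and eBayes functions of limma 3.58.1 (R 4.3.3, 2 residual and 3.43 prior degrees of freedom). Adjusted p-values are Benjamini-Hochberg values over 14860 genes. SE and 95% intervals are limma's moderated ones, and folds are back-transformed changes. The test was repeated relative to the 500 genes nearest in brightness. The members and lists were chosen with earlier results of these data known, and the background reference after the data were seen. Values on every array are given for the members with the smallest p in each direction and those at rate-limiting or branch steps, and of the further pathway genes those at an unadjusted p under 0.05 are named. Alternatives were other limma priors, scalings, brightness filters and windows, the mean of a gene's rows, a block for the replicate number, leaving out each array and, chosen after seeing the data, the members without Pkm. Some members at intermediate ranks are also given on every array, and Arnt and Epas1 were named after their values were seen.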

Additional observations from a re-analysis of the deposited data

How the results depend on the processing

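Across 14 settings per member, 21 of the 35 members kept the sign of their change in all of them. Among these were Hif1a, Egln1, Egln3, Tpi1, Slc16a3 and Gbe1, and 14 members took the other sign in at least 1. The limma priors, brightness filters and replicate block cannot alter a change, and the mean of a gene's rows can alter only that of Ldhb. Leaving out 1 array cannot turn the sign of a member whose groups do not overlap. For the members just named, whose groups do not overlap, only the scalings, equal brightness included, could have turned the sign. The number of members past limma over all genes was 0 except, as deposited, among genes above the median of brightness, where it was 1 (Egln3). Relative to genes of equal brightness it was 0 of 29 with that filter. That filter lowers the number of genes tested and also has limma estimate the prior spread from the brighter genes alone. In that filtered set 50 of 7430 genes passed (23 relative to genes of equal brightness), and above the 25th percentile of brightness 9 of 11145 (and 2). Of all 14860 genes 3 passed with a variance trend and 0 with the replicate block. Which of these bears on the passing of Egln3 was not tested, and neither was the cause of the differences below. Lower members at an unadjusted limma p under 0.05 numbered 3 with quantile normalization (8.57%, against 5.09% of all genes). They numbered 4 with centring (11.4%, against 4.57%) and 3 with cyclic loess (8.57%, against 5.42%). Higher members numbered 2 with quantile normalization (5.71%, against 4.1%), 1 with centring (2.86%, against 3.85%) and 2 with cyclic loess (5.71%, against 3.67%). The members' median change was −0.0816 with quantile normalization, −0.134 with centring, −0.0945 with cyclic loess and −0.33 to −0.16 with 1 array left out, and the median of all genes was 0.02, 0.03 and 0.00 under the same 3 scalings, a shift of about 0.1. Members with both JQ1 arrays below both DMSO arrays numbered 7 with quantile normalization (20.0%, against 18.6% of all genes). They numbered 11 with centring (31.4%, against 17.2%) and 8 with cyclic loess (22.9%, against 19.8%). With 1 array left out the count is of 2 arrays against 1 and was 18 to 22 below (6437 to 8023 of all genes) and 5 to 7 above (3071 to 3930 of all genes). Relative to genes of equal brightness, with 1 array left out, the median was −0.158 to −0.0453. On that scale 1 member was higher with a window of 1000 genes (2.86%, against 3.55% of all genes) and with the replicate block (2.86%, against 3.87%).

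The labels share replicate numbers but pair nothing, and same-numbered arrays deviated together with a correlation across genes of 0.097 (0.203 across members). With the replicate number as a block (replicate block), 0 members passed. At an unadjusted limma p under 0.05, 4 were lower (11.4%, against 8.32% of all genes) and 1 was higher (2.86%, against 2.03%). The 4 members whose sign turned under a scaling had changes of at most 0.12 in size as deposited. Under quantile normalization, centring, cyclic loess and equal brightness, Hk1 was at 0.0362, 0.0017, 0.0152 and 0.0189, Pdk1 at 0.1226, 0.1101, 0.0889 and 0.065, Bnip3 at 0.0582, 0.0115, 0.0334 and 0.0376, and Ankrd37 at 0.0314, 0.0589, 0.0369 and 0.0125. Ldhb was at 0.0713 with the mean of its rows, of which the dim one lies among rows of other chromosomes. With 1 array left out, Hk1 ranged from −0.27 to 0.0342, Pfkl from −0.16 to 0.19, Pfkfb3 from −0.17 to 0.24, Pfkfb4 from −0.21 to 0.24, Aldoc from −0.15 to 0.67, Eno2 from −0.0258 to 0.13 and Pkm from −0.70 to 0.25. Pdk1 ranged from −0.38 to 0.37, Bnip3 from −0.27 to 0.0547, P4ha2 from −0.68 to 0.0214, Ankrd37 from −0.33 to 0.21, Vegfa from −0.31 to 0.003 and Kdm3a from −0.11 to 0.29. A lone array was assumed to vary like the other group, and leaving out Pkm moved no count by more than 1.5 times.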
